A study of Rattus norvegicus with 14 samples.

Results

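The aorta of the untreated control rat is described from 5 libraries, 1 for each of 5 rats, out of 14 libraries in a rat study of uremia and calcification of the aortic wall. The members are the libraries labelled control, from rats 41, 42, 43, 44 and 46, and they were chosen by label alone. All were male Dark Agouti rats, an inbred strain, that received no treatment and were killed after 14 weeks; their age and diet are not given in the sources used here. The vessel was taken between the heart and the renal arteries, cleaned of surrounding connective tissue, rinsed and frozen, and its polyadenylated RNA was sequenced. The thoracic and upper abdominal aorta and all layers of the wall are therefore in 1 sample, and nothing separates cell types. With 1 group there is no contrast and no test, and each result is a level, a share or a spread over the 5 rats.

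The aortic wall has 3 layers. The intima is a single sheet of endothelial cells on a basement membrane, the media holds smooth muscle cells between sheets of elastin, and the adventitia holds fibroblasts, collagen, nerve fibres and resident macrophages. Outside lies perivascular fat, which in rodents has features of brown fat along the thoracic aorta and of white fat further down. The media makes up most of the wall of a large elastic artery, and its cells both contract and secrete the elastic matrix that stretches with each heartbeat.

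Levels are in FPKM, fragments divided by the length of the transcript and the reads mapped in its library, which allows genes to be compared with each other. Values after ± are SD over the 5 rats, and 5 values in a row are those of rats 41, 42, 43, 44 and 46 in that order. Of 17019 genes listed, 9592 had a mean of at least 1 FPKM, 5196 of at least 10, 741 of at least 100 and 41 of at least 1000. Another 4611 were listed at 0 in all 5 libraries. The whole reads behind the values could be recovered for 9955 genes; they summed to between 1296915 in rat 43 and 1970336 in rat 42, with a median of 57 reads per gene. Across the 9592 genes at 1 FPKM or more, Pearson's r of log2(FPKM + 1) lay between 0.958 and 0.975 over the 10 pairs of libraries. The 4 pairs with rat 46 were the lowest, from 0.958 to 0.964. Some genes that nearly every cell uses were listed at or near 0: Hprt1, Myh9 and Myl6 at 0 in every library, Hspa8 at 0, 0, 0, 0.210 and 0.172 FPKM, and Ppia at 0.966, 0.421, 0, 1.78 and 0.971 FPKM. A value of 0 can therefore be a failed estimate, and it is given here as a listing, not as absence.

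A small number of genes made up much of the transcript pool. The 10 most abundant genes held 16.3% ± 1.46 of all FPKM, with 18.0% in rat 41 as the highest and 14.7% in rat 42 as the lowest share. The 100 most abundant held 36.8% ± 1.25, and 274 genes held 50% of the total. All of the first 10 except Ptms, parathymosin, encode proteins of the smooth muscle cytoskeleton or of the extracellular matrix.

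The 5 genes used to check that the tissue is aorta were all among the 9 most abundant. Tagln, which encodes transgelin, an actin-binding protein of smooth muscle, lies at chr8:48847363-48852838 in rn5 and had 13179, 9178, 10492, 12805 and 10244 FPKM. Mgp, which encodes matrix Gla protein, a secreted inhibitor of calcification, lies at chr4:235113782-235117105 and had 12348, 8579, 9326, 12027 and 13394 FPKM. Their means, 11179.6 ± 1732 FPKM and 11135 ± 2072 FPKM, differed by far less than either SD, so the order of the first 2 genes is not settled by 5 rats.

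Acta2, smooth muscle alpha-actin, lies at chr1:259760520-259773301 in rn5 and had 9164, 5996, 6748, 7802 and 5881 FPKM. Myh11, the smooth muscle myosin heavy chain, lies at chr10:11444266-11538406 and had 3637, 2978, 3229, 4439 and 3439.9 FPKM. Eln, the precursor of elastin, lies at chr12:26978747-27022485 and had 6498, 6244, 6617, 7987 and 9598 FPKM. All 3 were high in every rat, with the highest level at most 1.56 times the lowest. Rat 41 was highest for Acta2, rat 44 for Myh11 and rat 46 for Eln, so no single rat had more of all the aortic markers.

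**Figure D1:**
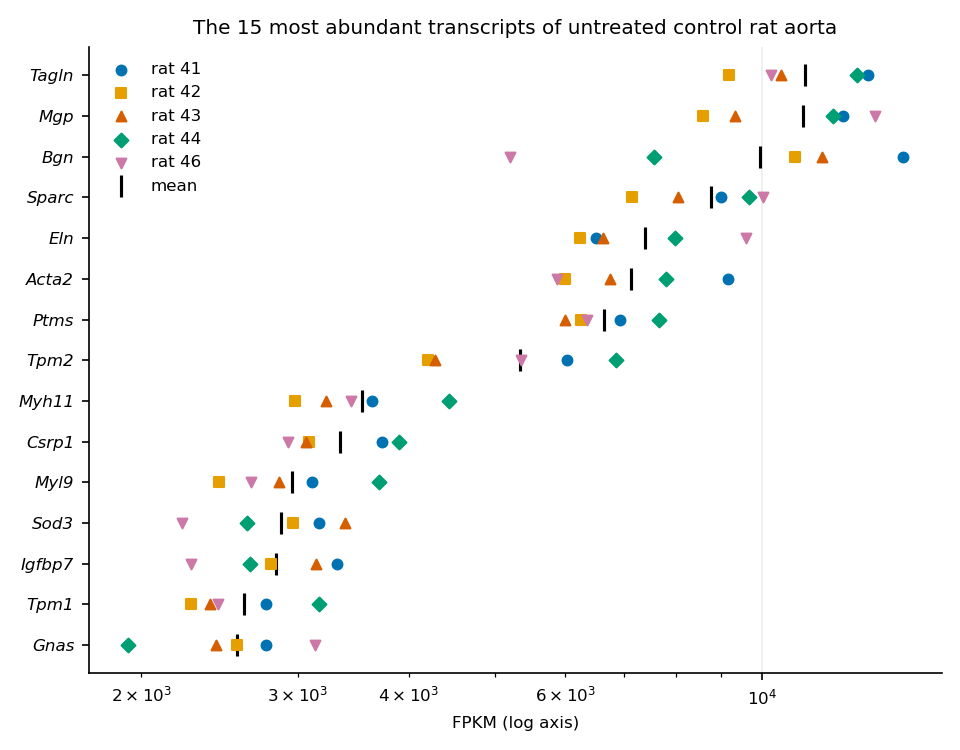
The 15 genes with the highest mean level are shown from top to bottom, with FPKM on a log axis; each symbol is 1 of the 5 control rats and each black line the mean. Most genes keep their 5 rats close together, while Bgn is spread out, with rat 41 at the upper and rat 46 at the lower end.

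The smooth muscle contractile list held the largest share of transcripts among the 22 lists of cell type markers. Of its 30 genes 28 were listed, and all but Myl6, at 0, were above 100 FPKM. Their median was 983 FPKM, against 11.6 FPKM over all genes with a mean of at least 1. Together they held 12.0%, 10.0%, 10.1%, 13.1% and 10.3% of all FPKM, and 15 of the 50 most abundant genes of the tissue belonged to this list.

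Proteins of the thin filament were among the most abundant of the list. Tpm2 and Tpm1, tropomyosins that lie along the actin filament, averaged 5342 ± 1134 FPKM and 2608 ± 363 FPKM, and Cnn1 and Cald1, which bind actin and restrain myosin, 1029.6 ± 127 FPKM and 1127 ± 148 FPKM. Myl9, the regulatory light chain whose phosphorylation starts contraction, averaged 2954 ± 484 FPKM, while Mylk, the kinase that phosphorylates it, averaged 272 ± 24.6 FPKM. The level of the substrate was thus about 10.9 times that of its kinase per transcript length. Ppp1r14a, an inhibitor of the myosin phosphatase, averaged 1038 ± 245 FPKM, above the phosphatase subunits Ppp1r12a at 203 ± 45.0 FPKM and Ppp1r12b at 132 ± 18.7 FPKM. Des, desmin of the intermediate filaments, was more variable than the others of this paragraph, with 2068, 1779, 1615, 3115 and 1481 FPKM, and was highest in rat 44.

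Rat 44 was highest for 16 of the 27 contractile genes at 10 FPKM or more, and rat 46 lowest for 15. Of all 5196 genes at 10 FPKM or more, rats 41, 42, 43, 44 and 46 were the highest for 21.8%, 14.7%, 16.2%, 24.8% and 22.5%, and the lowest for 17.2%, 15.4%, 17.2%, 19.4% and 30.8%. The contractile genes differed little between rats: the summed level of the list was highest in rat 44 at 60935 FPKM and lowest in rat 42 at 44092 FPKM, a ratio of 1.38. None of the 27 genes reached the spread used below to mark variable genes.

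The actins are close paralogs, and how the authors' counting divided reads between them is not given in the sources used here, so their separate levels are uncertain. As listed, Acta2 stood above Actb, the cytoplasmic beta-actin, at 1704 ± 258 FPKM. Actg2, the actin of visceral smooth muscle, had 399, 213, 238, 338 and 185 FPKM, and Acta1, the skeletal muscle actin, had 77.1, 46.2, 97.5, 83.1 and 48.6 FPKM. Actc1, the cardiac actin, averaged 4.00 ± 1.12 FPKM. Both Acta2 and Actg2 were highest in rat 41 and lowest in rat 46.

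Elastin was accompanied by most of the machinery that assembles it. Of 20 elastic fibre genes listed, 18 were at 1 FPKM or more. Fbln5, fibulin-5, which brings elastin onto microfibrils, averaged 501 ± 66.3 FPKM. The latent TGF-beta binding proteins Ltbp3, Ltbp4, Ltbp2 and Ltbp1 averaged 197 ± 12.5 FPKM, 179 ± 23.0 FPKM, 167 ± 30.5 FPKM and 123 ± 11.6 FPKM, and Fbn1, fibrillin-1 of the microfibril, averaged 68.3 ± 4.82 FPKM. Among the crosslinking enzymes, Loxl1 averaged 86.9 ± 12.3 FPKM and Lox had 20.3, 31.1, 48.7, 31.4 and 39.6 FPKM. Fbn2, the fibrillin of developing tissue, was at or near 0, with 0, 0.0363, 0, 0.0511 and 0 FPKM. Per length, elastin itself was about 108 times as abundant as fibrillin-1.

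Collagens were led by the fibrillar types. Col3a1 and Col1a1, the main chains of collagens III and I, averaged 1537 ± 183 FPKM and 1516 ± 277 FPKM, and did not differ beyond their spread. Col1a2, the partner chain of Col1a1, was listed at 0 in every library, where a failed estimate cannot be told from absence. Col6a2 averaged 478 ± 86.3 FPKM, Col18a1 355 ± 59.5 FPKM and Col4a1, of the basement membrane, 112 ± 7.01 FPKM. Sparc, a matrix protein that binds collagen, was the fourth most abundant gene, with 8994, 7138, 8034, 9661 and 10021 FPKM.

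Among the small leucine-rich proteoglycans, which coat collagen fibrils, Bgn (biglycan) was at the top. It had 14423, 10890.0, 11672, 7558 and 5205 FPKM, so it was the most abundant gene of rats 41, 42 and 43 and stood in rat 46 at 36.1% of its level in rat 41. Prelp averaged 1174 ± 107 FPKM and Fmod 134 ± 16.6 FPKM, both with little spread. Dcn (decorin) had 869.6, 797, 881, 309 and 609.8 FPKM, and Lum (lumican) had 267, 338, 326, 133 and 231 FPKM. Rat 44 was lowest for Dcn and Lum, and rat 46 for Bgn, so the proteoglycans did not vary as a block. As a list they held 3.70%, 3.13%, 3.19%, 2.06% and 1.70% of all FPKM.

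Of 17 genes that restrain calcification or handle phosphate, 13 were at 1 FPKM or more. Mgp led them, and the 2 enzymes that its vitamin K-dependent activation needs were present: Ggcx, the gamma-carboxylase, at 20.5 ± 3.24 FPKM, and Vkorc1, which recycles vitamin K, at 156 ± 19.3 FPKM. Gas6, another vitamin K-dependent protein, averaged 348 ± 34.4 FPKM. Tnfrsf11b, osteoprotegerin, a decoy receptor that blocks osteoclast formation, had 288, 344, 376, 239 and 147 FPKM. It was lowest in rat 46, whereas Mgp was highest there.

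Pyrophosphate, a further inhibitor of mineral, is made outside the cell by Enpp1 and exported by way of Ankh, and is split by the phosphatase Alpl. These averaged 7.44 ± 1.00 FPKM, 25.4 ± 3.29 FPKM and 38.0 ± 3.53 FPKM. The phosphate importers Slc20a1 and Slc20a2 averaged 32.5 ± 5.26 FPKM and 29.0 ± 5.05 FPKM. Alpl differed little between rats, with 43.0, 36.0, 39.2, 38.0 and 33.6 FPKM. Abcc6, and the serum protein gene Ahsg, were listed at 0.

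Some genes better known from bone were abundant in these untreated vessels. Spp1, osteopontin, an acidic protein that binds mineral, had 612, 383, 403, 458 and 359 FPKM. Dmp1, a phosphoprotein known from osteocytes and dentine, had 565, 526, 413, 729.9 and 364 FPKM. Some other bone genes were low: Runx2, the transcription factor that starts osteoblast formation, averaged 1.33 ± 0.377 FPKM, and Sp7, which acts after it, had 0.778, 0.226, 0, 0.318 and 0.521 FPKM. Bglap (osteocalcin) was listed at 0, where a failed estimate cannot be told from absence. Sost, sclerostin of osteocytes, had 4.29, 7.96, 19.4, 12.5 and 13.5 FPKM. The cartilage collagen Col2a1 was listed at or near 0, with 0, 0, 0.212, 0.0972 and 0 FPKM. The level of the bone list thus rested on Spp1 and Dmp1, each at 359 FPKM or more in every rat.

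Secreted regulators and protease inhibitors were prominent. Sod3, the extracellular superoxide dismutase, averaged 2875 ± 460.2 FPKM, and Cst3, cystatin C, an inhibitor of cathepsins, 1175 ± 86.5 FPKM. The metalloprotease inhibitors Timp3 and Timp2 averaged 519 ± 104 FPKM and 514 ± 39.9 FPKM, against 231 ± 31.5 FPKM for the gelatinase Mmp2, while Mmp9 had 0, 0, 0.161, 0 and 0 FPKM and Mmp3 and Mmp12 were listed at 0. Growth factor genes were led by Igfbp7 at 2837 ± 412 FPKM and by Ctgf at 1562 ± 295 FPKM, a matrix-bound protein induced by TGF-beta and by stretch. Tgfb3 averaged 360.1 ± 75.2 FPKM, above Tgfb1 at 39.4 ± 5.98 FPKM and Tgfb2 at 25.8 ± 8.18 FPKM.

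Genes that set vascular tone had lower levels. Of 35 receptors, ligands and enzymes of this kind, 28 were at 1 FPKM or more and 12 at 10 or more, with a median of 3.27 FPKM. Ptgis, prostacyclin synthase, was the highest at 197 ± 36.7 FPKM. Npr1 and Npr2, the receptors of the natriuretic peptides, averaged 62.2 ± 11.6 FPKM and 38.7 ± 5.78 FPKM. Of the alpha1-adrenoceptors, which answer noradrenaline, Adra1d averaged 32.0 ± 12.2 FPKM and Adra1b 4.30 ± 1.47 FPKM, while Adra1a had 1.01, 0.439, 0.672, 0 and 1.01 FPKM. The lowest rat for Adra1d was above the highest rat for the other two. Ednra, the endothelin receptor of smooth muscle, averaged 8.51 ± 2.72 FPKM, and Agtr1a, an angiotensin II receptor, had 4.11, 5.30, 7.25, 1.41 and 4.95 FPKM. Adrb3, the beta-adrenoceptor typical of adipocytes, had 13.6, 7.37, 12.2, 20.1 and 36.3 FPKM and was highest in rat 46.

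The summed level of ion channel and calcium genes differed little between rats, with the highest rat at 1.17 times the lowest. Its members at 10 FPKM or more were close to the typical gene. Their median SD of log2(FPKM + 1) was 0.188, against 0.202 over all genes at that level. Itpr1, which releases stored calcium, had 32.8, 32.0, 31.8, 30.6 and 28.4 FPKM, and Kcnj8, the pore of a vascular ATP-sensitive potassium channel, had 26.2, 26.8, 25.9, 28.5 and 27.2 FPKM. The ranges of both genes were narrow, with the highest rat at most 1.16 times the lowest. Atp2a2, the calcium pump of the sarcoplasmic reticulum, averaged 219 ± 23.2 FPKM, and Casq2, a calcium-storing protein, 268 ± 34.0 FPKM. Of the large-conductance calcium-activated potassium channel, the beta subunit Kcnmb1 averaged 187 ± 40.4 FPKM and the pore Kcnma1 12.1 ± 0.999 FPKM. Cacna1c, the voltage-gated calcium channel, averaged 9.43 ± 1.23 FPKM.

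In the transcription factor list, with 45 genes in the table, Nr4a1, an orphan nuclear receptor, was the highest at 230.2 ± 56.4 FPKM. Hey2, a target of Notch signalling, averaged 102 ± 17.7 FPKM. Some factors of other lists were higher, such as Jund and Egr1 of the immediate early and stress list at 874 and 602 FPKM. Srf, which drives contractile genes, had 54.1, 53.0, 53.8, 56.8 and 59.1 FPKM, with almost no difference between rats. Myocd, the myocardin coactivator that binds Srf, had 50.2, 84.0, 113, 68.6 and 22.4 FPKM and so differed by 5.04 times between rats 43 and 46. Acta2 and Tagln were highest in rat 41, and Acta2 was lowest in rat 46. Rat 43 was highest for 1 of the 27 contractile genes at 10 FPKM or more, against 16.2% of all genes at that level. Rat 46 was lowest for 15 of the 27, against 30.8%. The part of Myocd in the contractile levels was not tested.

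The HOX genes, which record position along the body axis, were led by members of the front part of the clusters. Hoxb4 had 39.6, 73.1, 60.5, 55.1 and 45.3 FPKM and Hoxa2 had 34.5, 25.3, 31.1, 30.2 and 24.9 FPKM. Hoxb3, Hoxc8 and Hoxc9 averaged 9.25 ± 0.875 FPKM, 6.69 ± 1.44 FPKM and 5.16 ± 1.38 FPKM. Hoxd10 had 0, 0, 0, 0.239 and 0 FPKM and Hoxa11 was listed at 0. Of 20 HOX genes listed, 10 were at 1 FPKM or more, over a dissected length that runs from the heart to the renal arteries.

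**Figure D2:**
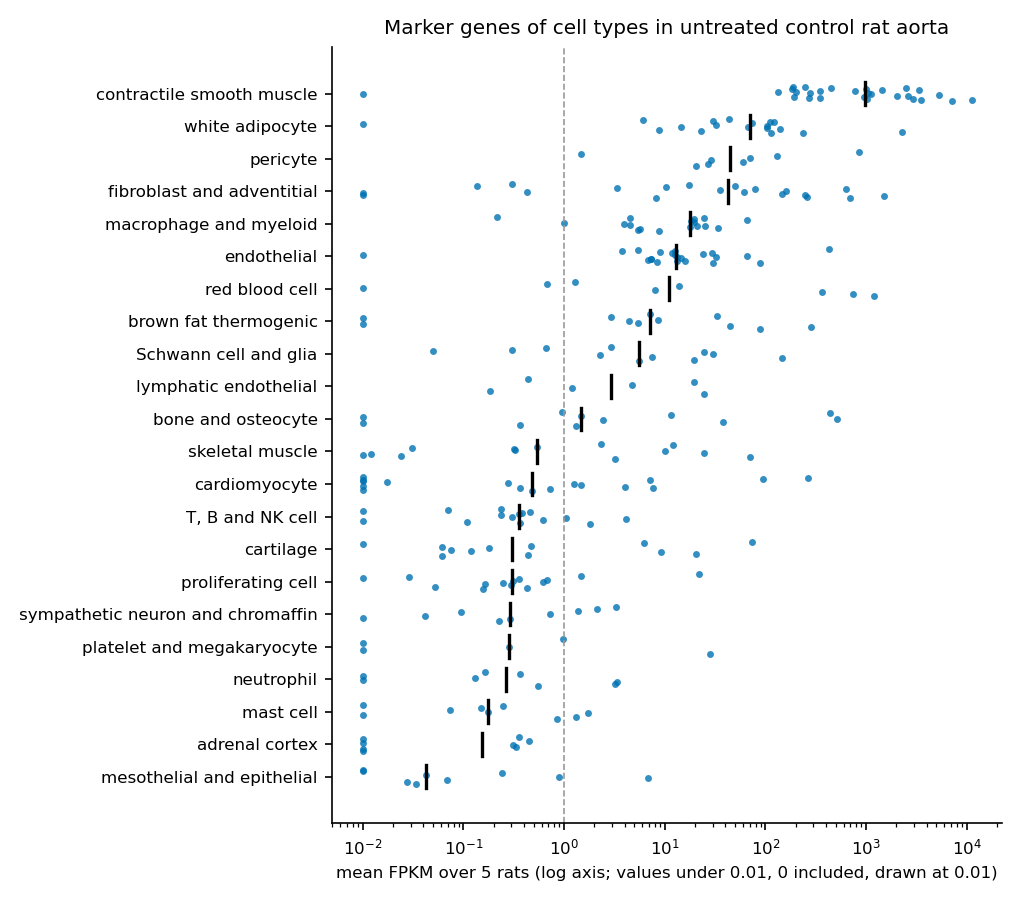
Each row is 1 list of cell type markers, ordered by its median, and each point is the mean FPKM of 1 gene over 5 rats on a log axis, with values under 0.01 drawn at 0.01 and the median as a black line; the dashed line marks 1 FPKM. The contractile list lies apart at the top with a median of 983 FPKM, and lymphocyte, neutrophil, mast cell, adrenal and epithelial lists have medians under 1 FPKM.

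In a bulk sample, fewer cells of a type and less RNA per cell of that type cannot be told apart, and this holds for all that follows on cell types. Endothelial markers held 0.179%, 0.176%, 0.182%, 0.181% and 0.204% of all FPKM, and 21 of 22 listed genes were at 1 FPKM or more. Pecam1, a junction protein, had 76.3, 76.4, 88.9, 99.6 and 103 FPKM, Cdh5, VE-cadherin, averaged 30.2 ± 3.23 FPKM, and Erg, a transcription factor of endothelium, 29.8 ± 3.67 FPKM. Nos3, the endothelial nitric oxide synthase, averaged 7.26 ± 1.096 FPKM. Vwf, von Willebrand factor, was uneven, with 4.85, 3.24, 12.7, 4.31 and 11.4 FPKM, the highest values being those of rats 43 and 46. Cav1 averaged 429 ± 48.2 FPKM and made up most of the summed list, but it is also a gene of smooth muscle and fat cells. Pericyte markers held 0.259% ± 0.0316 of all FPKM; most of that was Mcam at 845 ± 177 FPKM, which arterial smooth muscle also expresses.

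Fibroblast and adventitial markers held 0.938%, 0.945%, 1.01%, 0.532% and 0.865% of all FPKM. Pi16, known from adventitial fibroblasts of mice, had 147, 125, 179, 78.1 and 198 FPKM, and Scara5 had 60.4, 65.7, 77.4, 24.4 and 81.0 FPKM. Fbln1, fibulin-1, had 79.5, 97.8, 103, 38.6 and 75.0 FPKM. Rat 44 was lowest for 11 of the 13 genes at 10 FPKM or more, against 19.4% of all genes, Dpt being close to even at 243, 278, 254, 208 and 252 FPKM. Cd34 was listed at 0 in every library.

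Rat 44 also had the lowest level for 8 of 9 macrophage genes at 10 FPKM or more, against 19.4% of all genes at that level. C1qb, a complement component made by macrophages, had 27.7, 18.9, 18.7, 7.38 and 32.8 FPKM, and Lyz2, lysozyme, had 35.6, 27.1, 58.8, 16.7 and 30.0 FPKM. Csf1r, the macrophage growth factor receptor, had 6.21, 5.93, 8.31, 2.50 and 5.27 FPKM. Rat 44 was at the low end of each, and rats 43 and 46 shared the highest values. The macrophage list as a whole held 0.0662%, 0.0530%, 0.0796%, 0.0329% and 0.0734% of all FPKM. Contractile genes were at their highest summed level in rat 44, where fibroblast and macrophage genes were lowest; the part of tissue composition in these levels was not tested.

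Markers of other blood-borne and neighbouring cells ranged from near the lower limit to well above it. Of 15 T, B and NK cell genes 3 were at 1 FPKM or more, with Cd3e at 0.699, 0.305, 0.467, 0 and 0.351 FPKM. Mast cell and neutrophil lists had 2 such genes each. None of 8 adrenal cortex genes reached 1 FPKM, and of 9 mesothelial and epithelial genes Krt8 alone did, at 6.86 ± 1.05 FPKM. Of 14 genes of dividing cells 2 did, Pcna, the sliding clamp of DNA replication that also serves in repair, at 22.1 ± 4.18 FPKM, and Tyms, an enzyme of thymidine synthesis, at 1.49 ± 0.854 FPKM. Mki67, a marker of dividing cells, had 0.182, 0.158, 0.291, 0 and 0.146 FPKM, and Top2a averaged 0.431 ± 0.179 FPKM.

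The dissection began at the heart, and of 17 cardiac genes 7 were at 1 FPKM or more. Casq2 and Pln, which are also expressed in arterial smooth muscle, averaged 268 ± 34.0 FPKM and 95.1 ± 12.0 FPKM, and the next in level was Tnnc1, troponin C of heart and slow muscle, at 7.72 ± 3.06 FPKM. Myh6, the atrial myosin heavy chain, averaged 0.481 ± 0.265 FPKM. Myh7, Myl2, Nppa and Nppb were listed at 0, which says nothing firm, because a failed estimate gives the same value. Schwann cell and glial markers were present: 8 of 11 were at 1 FPKM or more and 4 at 10 or more. Only 1 was at 100 FPKM or more, and it made up most of the summed level of 241 ± 39.0 FPKM. S100b, which fat cells also express, had 20.3, 20.3, 32.3, 14.9 and 62.0 FPKM, highest in rat 46. Sox10, a transcription factor of Schwann cells, had 0.593, 4.45, 1.90, 1.75 and 2.62 FPKM, highest in rat 42. Stmn2, of neurons, had 0.777, 6.10, 1.298, 1.91 and 6.24 FPKM, with rats 42 and 46 highest.

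Fat was a clear component of every library. The white adipocyte list held 0.594%, 0.592%, 0.678%, 0.577% and 1.44% of all FPKM, more than the fibroblast list in rats 44 and 46 and less in the other 3. This comparison leaned on single members. The mean summed levels were 3522 FPKM for white adipocytes and 3914 FPKM for fibroblasts. Without their most abundant members, Fabp4 and Col1a1, they were 1225 FPKM and 2398 FPKM. In addition, 2 of 20 fibroblast genes, Col1a2 and Cd34, and 1 of 18 white adipocyte genes were listed at 0. These may be failed estimates, so the order of the 2 lists is not settled. Fabp4, the fatty acid binding protein of adipocytes and some endothelial cells, had 1804, 1786, 1931, 1882 and 4085 FPKM. Plin1, which coats the lipid droplet, had 157, 143, 212, 181 and 477 FPKM, and Adipoq, the adipocyte hormone adiponectin, had 94.6, 65.9, 107, 62.6 and 234 FPKM. In each of these rat 46 was more than 2 times as high as the median rat, and it was the highest rat for 13 of 15 members at 10 FPKM or more, against 22.5% of all genes. Lep, leptin, had 3.94, 4.21, 6.30, 4.58 and 25.3 FPKM with the same rat on top.

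Markers of brown fat were found too. Ucp1, the uncoupling protein that lets brown fat produce heat, had 68.3, 59.3, 107, 71.0 and 133 FPKM. Cidea, a lipid droplet protein of brown fat, had 239, 199.9, 261, 200.3 and 519.5 FPKM, and Cox8b, a cytochrome oxidase subunit of brown fat and muscle, had 30.4, 31.4, 45.1, 40.1 and 78.0 FPKM. Rat 46 was highest for all 4 members at 10 FPKM or more, against 22.5% of all genes at that level. Rat 43 was second for the 3 genes given here.

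Mitochondrial genes had the same rat on top. Rat 46 was the highest for 28 of 31 respiratory chain genes and for 17 of 19 fatty acid oxidation genes at 10 FPKM or more, against 22.5% of all genes at that level. Acadm, a dehydrogenase of fatty acid oxidation, had 214, 162, 192, 147 and 493 FPKM. Atp5b, a subunit of ATP synthase, had 526, 409, 469.8, 431 and 918 FPKM. The 5 libraries gave the fatty acid oxidation list 0.312%, 0.276%, 0.315%, 0.279% and 0.680% of all FPKM, against 0.594%, 0.592%, 0.678%, 0.577% and 1.44% for the white adipocyte list. The other 4 rats lay between 0.276% and 0.315% for fatty acid oxidation and between 0.577% and 0.678% for white adipocytes; the part of adhering fat in the mitochondrial levels was not tested. Scd1, a desaturase that makes monounsaturated fat, had 66.5, 63.8, 171, 15.4 and 295 FPKM, highest in rat 46 and lowest in rat 44, as was the share of the white adipocyte list.

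**Figure D3:**
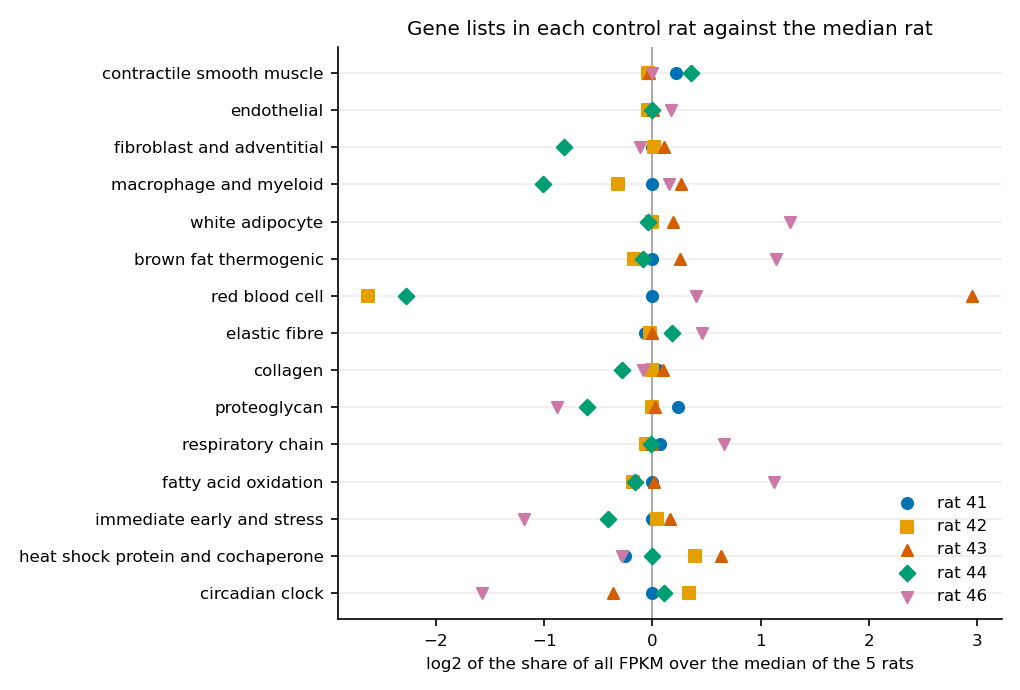
For each gene list the share of all FPKM in each control rat is shown as log2 of its ratio to the median of the 5 rats; each symbol is 1 rat. Rat 43 lies far to the right for red blood cell genes, and rat 46 lies to the right for fat, respiratory chain and fatty acid oxidation genes and to the left for clock and immediate early genes.

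The typical gene differed little between the 5 rats. Among the 5196 genes with a mean of at least 10 FPKM, the median SD of log2(FPKM + 1) was 0.20 and the median coefficient of variation 14.5%. For the 4948 of them with recovered reads, counting alone would give a median coefficient of variation of 8.31%, against 14.4% observed. Reads after PCR are not independent molecules, so this limit covers counting error only. In 773 genes the observed value was below the counting value, among them genes with the smallest spread, such as Gna12, a G protein subunit, with 51.7, 50.4, 50.6, 50.6 and 50.2 FPKM, and Ppic, a cyclophilin, with 126, 129.6, 126, 124 and 128 FPKM.

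At the other end, 268 genes (5.16% of the 5196) had an SD of log2(FPKM + 1) of at least 0.5, and are called variable here. The last gene inside this limit had 0.50013 and the first outside 0.499639, so it divides a continuous range. The count depended on rat 46: without that library 176 genes passed. Rat 46 was the highest of the 5 in 111 of the variable genes and the lowest in 77, and rats 41, 42, 43 and 44 were the highest in 54, 27, 58 and 18. Of the variable genes, 97 were in at least 1 of the lists. Beside the 5.16% of all genes, the variable ones were 4 of 4 red cell genes at 10 FPKM or more, 9 of 11 clock genes, 10 of 15 white adipocyte genes, 11 of 19 fatty acid oxidation genes and 11 of 21 immediate early and stress genes.

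**Figure D4:**
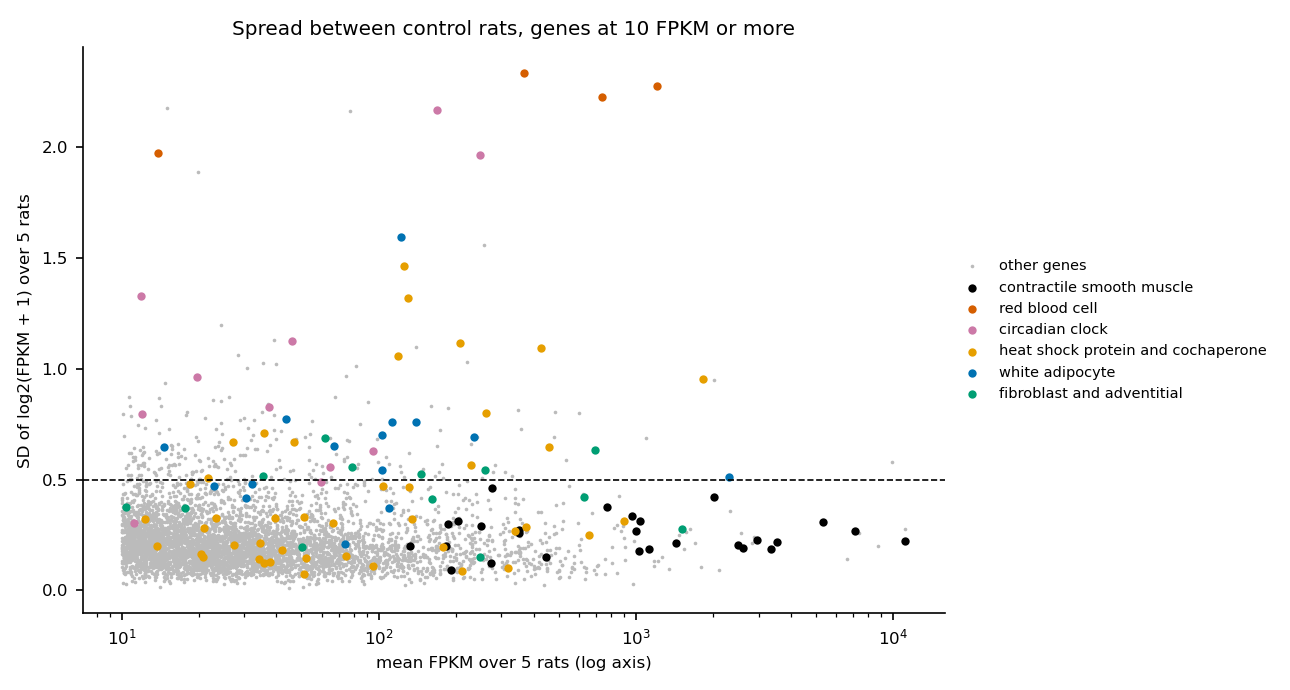
Each point is 1 gene with a mean of at least 10 FPKM, with mean FPKM on a log axis and the SD of log2(FPKM + 1) over 5 rats; colours mark gene lists and the dashed line is at 0.5. Contractile genes are all under the line at high levels, while globin genes and Nr1d1 lie above 2 and the most variable heat shock gene, Hspa1b, is at 1.47.

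Hemoglobin transcripts had the widest spread. Hba1, alpha-globin, had 604, 86.7, 4511, 122 and 700.4 FPKM, and Hbb, beta-globin, had 155, 23.7, 1396, 34.1 and 234 FPKM. Alas2, the first enzyme of heme synthesis in red cell precursors, had 8.56, 0.546, 51.6, 1.54 and 6.92 FPKM. Rat 43 was highest and rat 42 lowest for all 4 red cell genes at 10 FPKM or more. Of all genes at that level, rat 43 was highest for 16.2% and rat 42 lowest for 15.4%. The red cell list held 1.88% of all FPKM in rat 43 against 0.0393% in rat 42. Hba1 and Hba2 are near-identical copies, so the division of reads between them is uncertain; Hba2 had 373, 61.0, 2698, 72.9 and 479 FPKM, in the same order of rats as Hba1. Pf4, of platelets, had 45.2, 8.86, 39.2, 11.1 and 37.4 FPKM. It was lowest in rat 42 and next lowest in the same rat as Hba1. Among rats 41, 43 and 46 its order differed from that of Hba1, with near-equal levels and no peak in rat 43.

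The circadian clock is a loop of transcription factors. Arntl (Bmal1) with Clock or Npas2 turns on the Per and Cry repressors, the nuclear receptors Nr1d1 and Nr1d2 and the factor Dbp; Nr1d1 and Nr1d2 in turn repress Arntl, while Nfil3 competes with Dbp at its target sites. Of 11 clock genes at 10 FPKM or more, 9 were variable. Nr1d1 had 203, 268, 175, 189.7 and 6.32 FPKM, and Dbp had 326, 382, 153, 363 and 14.4 FPKM. Rat 46 stood apart from the other 4, with Nr1d1 at least 27.7 times lower than in any of them and Dbp at least 10.6 times lower.

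Most other members placed rat 46 at an end too. Of the 11 clock genes at 10 FPKM or more, rat 46 was lowest for 8 and highest for 2. Of all genes at that level, it was lowest for 30.8% and highest for 22.5%. Per3 had 22.4, 27.1, 14.8, 29.2 and 4.94 FPKM, Tef, a relative of Dbp, had 52.7, 46.5, 25.2, 50.0 and 13.2 FPKM, and Nr1d2 had 17.2, 18.6, 9.43, 13.1 and 1.09 FPKM. Arntl had 0.723, 1.47, 3.06, 0.148 and 14.4 FPKM, Npas2 had 5.54, 7.84, 14.6, 7.33 and 24.6 FPKM, and Nfil3 had 15.2, 41.4, 75.1, 16.4 and 81.6 FPKM. These 3 were highest in rat 46, while Nr1d1, Nr1d2, Dbp, Per3 and Tef were lowest there. Arntl rested on few reads, 32 on average. Rat 43 had the second highest Arntl, Npas2 and Nfil3 and, among the other 4 rats, the lowest Dbp, Tef and Per3. Cry1 did not follow this pattern, with 5.89, 1.4998, 2.96, 3.47 and 3.70 FPKM and its highest level in rat 41.

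The promoters of these genes were searched for 2 sequences of the loop, within 250 bases before and 50 after the start of the gene, in RefSeq sequence of the build GRCr8. The E-box CACGTG, where Arntl and its partner bind, was found in 2 of 12 clock promoters (16.7%), those of Bhlhe40 and Tef, against 6.65% of 27457 promoters and 9.62% of the 7134 promoters of genes at 1 FPKM or more. The immediate early and stress list held it in 4 of 18 promoters (22.2%), a higher share than the clock list. The D-box TTATGTAA, or its reverse complement TTACATAA, was found in 1 of 12 (8.33%), against 0.881% of all and 0.477% of those of genes at 1 FPKM or more. Both were searched on both strands and do not overlap each other. The stretches around the matches in Tef and Per2 are shown because they carry 1 site of each kind, with the match in capitals, 5′ to 3′ on the strand of the gene. That of Tef is chr7:115206577-115206696 on the plus strand and that of Per2 is chr9:99497123-99497242 on the minus strand.
Tef: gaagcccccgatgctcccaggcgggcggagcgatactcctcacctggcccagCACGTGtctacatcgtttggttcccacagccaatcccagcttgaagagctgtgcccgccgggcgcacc
Per2: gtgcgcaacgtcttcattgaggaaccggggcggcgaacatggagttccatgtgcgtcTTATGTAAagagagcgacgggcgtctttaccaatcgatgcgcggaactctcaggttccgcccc
Per2 itself had 69.4, 57.6, 48.3, 86.8 and 34.99 FPKM, with its lowest level in rat 46. A match of letters is a description and shows no binding in these vessels.

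Immediate early genes, which respond within minutes to stimuli of many kinds, and stress genes varied in more than 1 pattern. Of 21 such genes at 10 FPKM or more, 11 were variable, and rat 46 was lowest in 16, against 30.8% of all genes at that level. One set was highest in rat 41: Fos had 466, 70.2, 222, 227 and 118 FPKM, Egr1 had 1261, 534, 506, 436 and 272 FPKM, and Zfp36, which destabilises messenger RNAs, had 1004, 283, 452, 457 and 237 FPKM. For each of these, rat 41 was at least 2.06 times as high as any other rat. Atf3, a stress-induced factor, was different, with 41.2, 570.0, 423, 164 and 88.0 FPKM: it was highest in rats 42 and 43 and lowest in rat 41.

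Genes known to answer glucocorticoids, a list added after the values had been seen, also placed rat 41 on top. Fkbp5, a brake on the glucocorticoid receptor, had 67.4, 18.8, 10.2, 18.8 and 6.64 FPKM. Zbtb16 had 71.8, 69.9, 17.9, 22.9 and 12.2 FPKM, and Tsc22d3, the glucocorticoid-induced leucine zipper, had 95.7, 46.8, 62.1, 46.9 and 32.2 FPKM. Rat 41 was the highest for 13 of 16 members at 10 FPKM or more, against 21.8% of all genes, and rat 46 the lowest for 10, against 30.8%. For Zbtb16 rat 42 was nearly as high as rat 41. The list shares Dusp1, at 890.2, 317, 443, 499 and 254 FPKM, with the immediate early genes.

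The Srf factor is known to drive Egr1 through the CArG box. This motif, CC and GG around a run of A or T bases, was searched without mismatch in the same promoter windows as above. It was found in 4 of 18 immediate early and stress promoters (22.2%), namely Egr1, Egr2, Klf6 and Zfp36. The share was 1 of 23 contractile promoters (4.35%) and 1.64% of all promoters. A box with a mismatch or outside the window was not counted, so a promoter without a match may still have a site. The Egr1 window, chr18:26736828-26737127 on the plus strand of GRCr8, holds 2 such boxes. The Zfp36 stretch, chr1:92799077-92799196 on the minus strand, holds 1. They are shown because these genes had the highest levels in rat 41, with CArG boxes in capitals.
Egr1: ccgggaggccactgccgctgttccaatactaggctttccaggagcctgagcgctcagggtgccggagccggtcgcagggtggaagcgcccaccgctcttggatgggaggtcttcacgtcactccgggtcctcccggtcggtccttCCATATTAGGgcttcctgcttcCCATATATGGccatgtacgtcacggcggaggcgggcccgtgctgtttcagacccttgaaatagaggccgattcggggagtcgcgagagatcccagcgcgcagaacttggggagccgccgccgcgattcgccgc
Zfp36: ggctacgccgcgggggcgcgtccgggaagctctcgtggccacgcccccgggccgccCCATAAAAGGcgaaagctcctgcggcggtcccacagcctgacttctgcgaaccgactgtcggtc
The level of Srf itself differed by a factor of at most 1.12 between rats, against 4.63 for Egr1 and 4.24 for Zfp36. The part of Srf in the levels of these genes was not tested.

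Heat shock proteins keep other proteins folded, and their genes are switched on by the heat shock factor Hsf1. A list of chaperones and their helpers was also added after the values had been seen. Of its 43 genes at 10 FPKM or more, 13 were variable, against 5.16% of all genes at that level. Rats 41, 42, 43, 44 and 46 were the highest for 4, 4, 20, 5 and 10 of the 43. Of all genes at that level, they were the highest for 21.8%, 14.7%, 16.2%, 24.8% and 22.5%. The list shares genes with the immediate early and stress list, among them Hspb1, Hsph1 and Dnajb1. Hspb1, a small heat shock protein abundant in muscle, had 1348, 2398, 3215, 1611 and 568 FPKM. Hspa1b, an inducible Hsp70, had 48.3, 205, 273, 79.2 and 22.3 FPKM, and Dnajb1, an Hsp40 that assists it, had 36.1, 205, 282, 83.2 and 41.2 FPKM. Rats 43 and 42 were the 2 highest for each, and rat 46 or rat 41 the lowest. Hsph1 had 83.5, 339.7, 403, 137 and 75.9 FPKM and Bag3, which joins Hsp70 to autophagy of damaged filaments, had 233, 581, 918, 258 and 138 FPKM, in the same 2 rats. Hspb7, of the same family as Hspb1, differed, with 200.3, 88.5, 99.8, 173 and 30.4 FPKM and its highest levels in rats 41 and 44. Hspa5, a chaperone of the endoplasmic reticulum, had 336, 262, 316, 334 and 441 FPKM and was highest in rat 46.

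The heat shock element, searched as GAANNTTC on both strands, where it reads the same, was found in 14 of 39 chaperone promoters (35.9%). The share was 8.34% over all 27457 promoters and 5.62% over the 7134 promoters of genes at 1 FPKM or more. The 4 promoters below were picked from those that hold it, among variable chaperones with named values, and the elements are in capitals. In GRCr8 they are chr12:26432252-26432551 on the minus strand (Hspb1), chr19:41431092-41431211 on the minus strand (Dnajb1), chr12:10427118-10427417 on the plus strand (Hsph1) and chr1:192533271-192533390 on the plus strand (Bag3).
Hspb1: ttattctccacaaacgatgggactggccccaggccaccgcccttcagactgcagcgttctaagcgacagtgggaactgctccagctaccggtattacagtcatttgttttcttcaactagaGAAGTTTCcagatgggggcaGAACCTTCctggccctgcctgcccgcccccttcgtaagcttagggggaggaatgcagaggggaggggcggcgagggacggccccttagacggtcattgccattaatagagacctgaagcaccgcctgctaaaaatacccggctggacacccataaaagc
Dnajb1: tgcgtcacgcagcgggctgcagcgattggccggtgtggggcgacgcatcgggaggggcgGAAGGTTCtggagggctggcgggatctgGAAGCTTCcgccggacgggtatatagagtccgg
Hsph1: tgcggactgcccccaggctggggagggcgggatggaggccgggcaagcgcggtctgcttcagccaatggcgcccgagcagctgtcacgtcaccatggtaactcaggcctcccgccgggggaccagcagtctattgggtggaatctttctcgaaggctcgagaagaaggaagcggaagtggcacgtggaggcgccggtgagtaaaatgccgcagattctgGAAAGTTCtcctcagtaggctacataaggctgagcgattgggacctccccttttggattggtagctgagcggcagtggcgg
Bag3: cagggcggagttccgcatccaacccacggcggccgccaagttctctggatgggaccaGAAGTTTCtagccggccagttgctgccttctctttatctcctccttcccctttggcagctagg
Relative to the start of the gene, the first match begins at position -129 in Hspb1, -11 in Dnajb1, -31 in Hsph1 and -132 in Bag3. A match is a description of letters only, and a promoter without one may be served by a site elsewhere.

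Rats 43 and 42 were highest and rat 46 lowest for Myocd as for Hspb1. Cyr61, a matrix protein induced by growth factors and stretch, had 1013, 447, 409.5, 423 and 370.0 FPKM and was highest in rat 41 instead. In rat 46, low Hspb1 and Dbp stood beside high Fabp4 and Acadm in the same library; the part of 1 in the other was not tested.

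**Figure D5:**
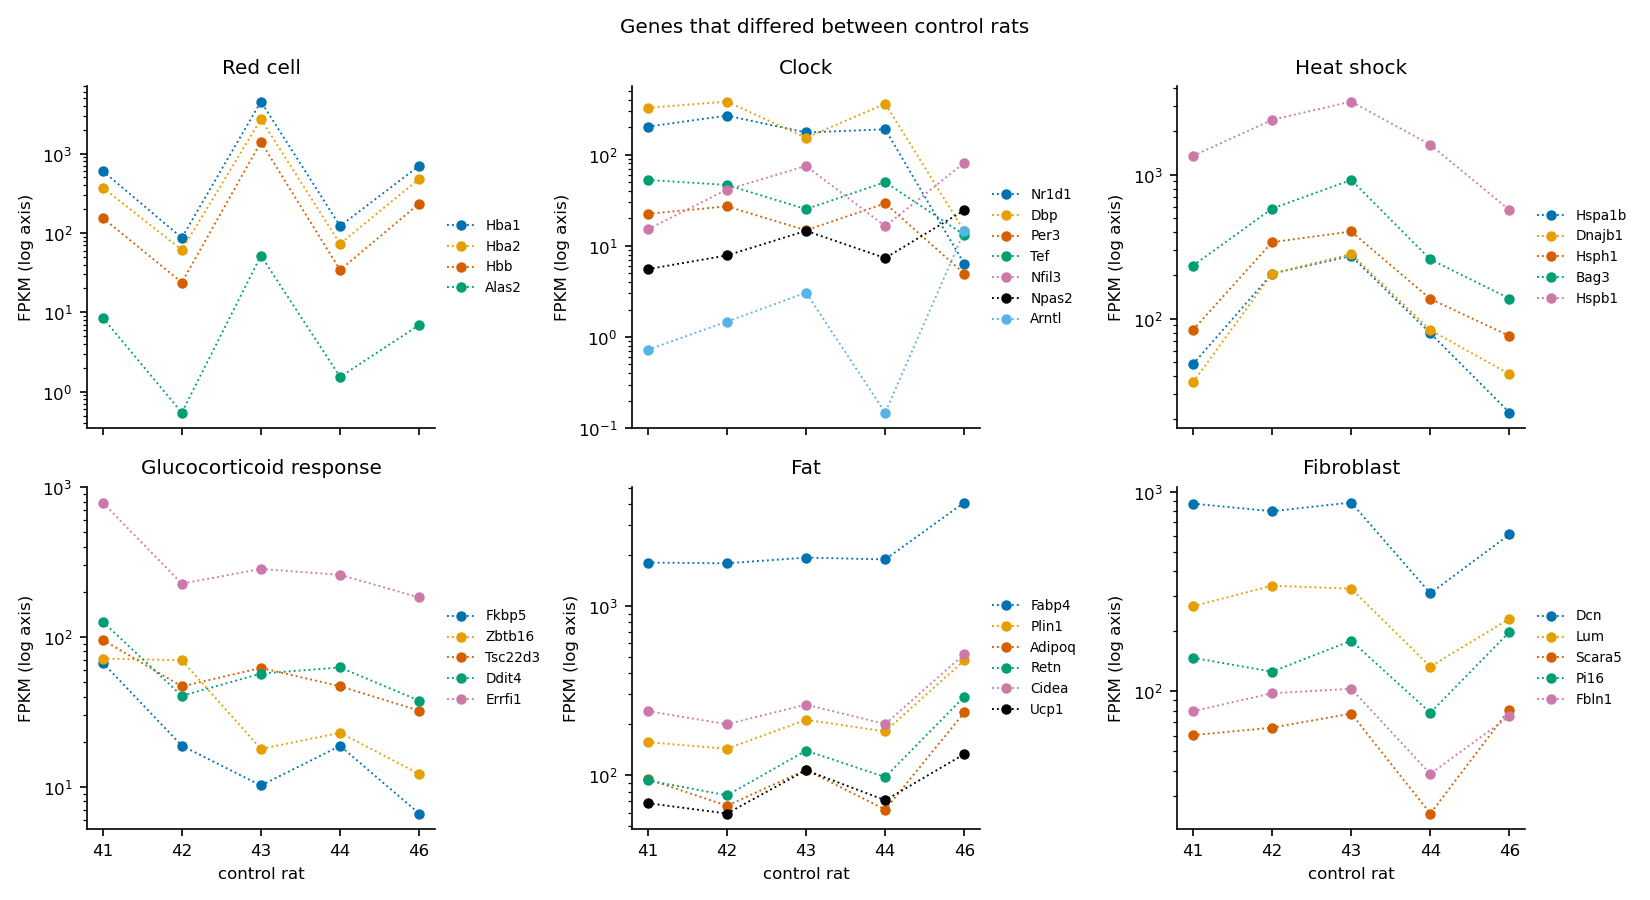
Levels of genes from 6 variable groups are shown for each control rat, with FPKM on a log axis; dotted lines join the values of 1 gene and stand for no order of the rats. Red cell genes peak in rat 43, and Nr1d1 and Dbp are lowest in rat 46, where Arntl is highest. The heat shock genes shown are highest in rats 43 and 42. Fkbp5 peaks in rat 41, fat genes peak in rat 46, and fibroblast genes are lowest in rat 44.

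MicroRNAs are too short to be counted in a library of this kind, and a value listed for a microRNA gene can only come from fragments of the longer polyadenylated transcript around it. Of 383 microRNA genes listed, 340 were at 0 in all 5 libraries and 8 had a mean of at least 10 FPKM. Mir143 and Mir145, which lie next to each other on chromosome 18 and whose microRNAs are known from mice as regulators of the contractile state of smooth muscle, were the highest. Mir143 had 198, 152, 91.4, 248 and 168 FPKM, from a mean of 47.4 reads, and Mir145 had 204, 149, 81.8, 195 and 115 FPKM, from a mean of 34.8. Both were lowest in rat 43. The mature sequences in RefSeq are shown as 5′ to 3′ RNA with the seed, bases 2 to 8, in capitals; the 4 seeds differ from each other.
rno-miR-143-3p: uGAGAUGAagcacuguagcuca
rno-miR-143-5p: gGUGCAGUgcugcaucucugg
rno-miR-145-5p: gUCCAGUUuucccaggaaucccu
rno-miR-145-3p: gGAUUCCUggaaauacuguuc
Of the other 6, Mir23b, Mir27b and Mir24-1 are neighbours on chromosome 17, with means of 31.8, 54.0 and 39.7 FPKM. They rest on 8.2, 13.6 and 7.6 reads on average, where counting alone gives a coefficient of variation of 29.8% to 47.8%.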

How the data were processed

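Polyadenylated RNA of 5 control aortas was sequenced, 1 library per rat. The genome rn5 and the tools TopHat2 2.0.10, Cuffdiff, cutadapt 1.3 and Cufflinks 2.1.1 are named in the submitters' processing notes without role or order; settings are not given in the sources used here. The deposited table names no unit; the values were taken as FPKM, the output of Cufflinks, and used as the authors deposited them. The authors' mean of the control group matched the mean of the 5 columns to a relative gap of 7.27e-06. For 9955 of 10272 genes above 0 in all libraries (96.9%), each value was a whole multiple of a step per gene and library. The match was within 0.01 read plus a relative 3e-05, up to 3000 reads. Reads and counting error were taken from these steps. On simulated data the recovered counts were scored only for genes with few reads, so recovery of larger counts was not tested. The recovered reads, 1296915 to 1970336 per library, are no total depth.

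All values were computed in Python 3.11.15 (pandas 2.3.3, numpy 2.4.6; figures in matplotlib 3.10.9). Spread is the SD of log2(FPKM + 1), a pseudocount of 1, over 5 rats, in genes with a mean of at least 10 FPKM. Gene lists (41, with 742 symbols, 672 of them in the table) and 4 added lists were chosen with earlier results of these data known; 35 symbols are in more than 1 list, so shares of lists overlap. Genes are named by a rule: the 20 with the highest mean, the 20 with the largest and 10 with the smallest spread, the 5 aortic markers, close paralogs, and in each list the highest and lowest members and those with a high spread; others named in the text were chosen from the lists after their values were seen. Names that a spreadsheet had changed to dates, 25 in all, are not printed. No test was made. Some genes under the rule are not reported here. Promoters and mature microRNAs are RefSeq sequences (GRCr8), matched by symbol, with no coordinates carried over from rn5. Alternatives were leaving out each rat, 2 other scalings, another pseudocount, other filters and measures.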

Additional observations from a re-analysis of the deposited data

Results flagged for a closer look

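Among the 5 rats, a value is described here when its gap to the nearest other rat takes up more than 0.71 of the whole range, which chance gives in about 1 in 20 groups. Of 218 values checked, 32 lay so far apart (14.7%): 17 belonged to rat 46, 6 to rat 43, 5 to rat 41 and 4 to rat 44. The share cannot be read against chance: many of these genes were named for their large spread or after their values were seen, and genes of 1 list tend to share their extreme rat.

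Rat 46 was far above the others for Fabp4 at 4085 FPKM, Plin1 at 477 FPKM, Adipoq at 234 FPKM, Lep at 25.3 FPKM and Cidea at 519.5 FPKM. It also stood high for Acadm at 493 FPKM, Atp5b at 918 FPKM, Aldoa at 306 FPKM, Ldhb at 231 FPKM and Arntl at 14.4 FPKM, and low for Cst3 at 1025 FPKM. Its shares of all FPKM were the highest for white adipocyte genes (1.44%), brown fat genes (0.186%), the respiratory chain (1.61%), fatty acid oxidation (0.680%), glycolysis (0.239%) and endothelial genes (0.204%).

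Rat 43 was far above the others for Hba1 at 4511 FPKM, Hba2 at 2698 FPKM, Hbb at 1396 FPKM and Alas2 at 51.6 FPKM, and its red cell share was 1.88%. Mmp9 was listed above 0 in rat 43 alone, at 0.161 FPKM. Rat 41 stood high for Egr1 at 1261 FPKM, Zfp36 at 1004 FPKM, Cyr61 at 1013 FPKM and Fkbp5 at 67.4 FPKM. It was also the highest for Gna12 at 51.7 FPKM, where the whole range was narrow.

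Rat 44 was low for Col3a1 at 1223 FPKM, Fbn1 at 60.0 FPKM and complement genes at 0.263% of all FPKM, and Hoxd10 was listed above 0 there alone, at 0.239 FPKM.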

How the results depend on the processing

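The number of variable genes depended on the filter on low levels and on 1 rat: it was 268 as reported, 856 among genes with a mean of at least 1 FPKM, 1058 with no filter, and between 176 (without rat 46) and 344 (without rat 42) when each rat was left out in turn. It stayed within 1.5 times under both other scalings (267 and 263), a pseudocount of 0.1 (309) and a coefficient of variation of at least 0.35 (294). Without its most abundant member, the summed level of the contractile list was 39625 FPKM (without Tagln), of the endothelial list 413 FPKM (without Cav1), of the fibroblast list 2398 FPKM (without Col1a1) and of the white adipocyte list 1225 FPKM (without Fabp4), and 26 of 34 other lists moved by more than 1 SD under that setting. The summed level of the red cell list was 2334 FPKM, and 745 FPKM without rat 43, less than 1 SD lower because that rat also makes the SD. The counts of detected genes, the share of the 10 most abundant genes, and the levels of named genes and lists moved by less than 1 SD, or for counts by less than 1.5 times, under the remaining alternatives; leaving out 1 of 5 rats cannot move a mean by more than 1 SD, so this says little about stability. Scaling factors were 0.968 to 1.04 for equal totals and 0.998 to 1.01 for the median ratio. Genes with few reads, such as Arntl, are limited by counting. No paired analysis was possible because there is only 1 group and no contrast.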

Other observations

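Genes of immune defence, some of them tied to immune cells, ranged from abundant to near 0. B2m, the light chain of MHC class I, had 901, 737, 855, 751 and 779.5 FPKM, with little difference between the rats. Cd59, which protects cells from complement, had 624, 526, 531, 573 and 557 FPKM, and C1r, the first protease of the classical pathway, averaged 352 ± 42.8 FPKM. Cd74, the invariant chain of MHC class II, had 22.7, 19.0, 40.0, 20.9 and 39.0 FPKM, highest in rats 43 and 46. C3, the central complement protein, was listed at or near 0, with 0.0708, 0.123, 0.284, 0 and 0.213 FPKM. The complement list had its lowest share of all FPKM in rat 44, where its macrophage members C1qa, C1qb and C1qc were lowest as well.

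Among enzymes of glycolysis, Aldoa and Ldhb averaged 237 ± 39.4 FPKM and 171 ± 34.2 FPKM, both highest in rat 46, while Gpi was even at 109, 102, 99.1, 101 and 99.2 FPKM. Gapdh, often used as a reference gene, was listed at 6.77, 7.63, 3.39, 4.16 and 6.798 FPKM and Eef1a1, an elongation factor found in every cell, at 64.5, 73.3, 61.6, 33.4 and 55.02 FPKM. Of 94 ribosomal protein genes listed, 9 were at 0 and 28 under 1 FPKM in the mean, beside 31 at 100 or more. Levels of such genes in this table are therefore given as listed, with no reading of their abundance.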
